A study of Homo sapiens with 6 samples.

Results

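The mitochondrial genome carries 7 protein-coding genes for complex I, MT-ND1, MT-ND2, MT-ND3, MT-ND4, MT-ND4L, MT-ND5 and MT-ND6. They were taken by symbol from a deposited gene count table of 35106 rows, and all 7 were present. The table came from RNA sequencing of HCT116 cells, an established human colon carcinoma line grown in serum-supplemented medium, in 3 libraries from cells given curcumin, the yellow polyphenol of turmeric, for 24 h and 3 from untreated cells. The dose of 30 carries the unit µm in the labels, taken here to mean µM. All 6 samples carry the genotype label WT, the untreated cells carry the treatment label none, and no solvent control is named in the sources used here. Whether the replicates were separate cultures is not stated, and every p-value below speaks only for the variation among these 6 libraries, which could be technical. The series title concerns the inhibition of colon cancer cells by curcumin. The comparison below asks how transcripts for the mitochondrially made part of complex I differ between treated and untreated cells, and whether MT-ND6, from the light strand, goes with the 6 heavy-strand genes.

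Complex I, the NADH:ubiquinone oxidoreductase, passes electrons from NADH to ubiquinone and pumps protons across the inner mitochondrial membrane. The mitochondrially encoded subunits build the hydrophobic core of its membrane arm, while the remaining subunits are made from nuclear genes and imported. Human mitochondrial DNA is transcribed from both strands into long precursors that are cut at interspersed tRNAs into separate mRNAs, and most of these mRNAs receive a short poly(A) tail. MT-ND6 is the only mRNA encoded on the light strand, and its mature form has been described as lacking a stable poly(A) tail. How the library kit, named in the labels as a SMARTer mRNA-Seq kit, captured or primed RNA is not given in the sources used here, nor is the use of strand in counting.

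The 7 genes differ in strand and in base composition. All sequences here are from GENCODE release 29 on GRCh38, and each gene has 1 exon. MT-ND1 lies at chrM:3307-4262, MT-ND2 at chrM:4470-5511, MT-ND3 at chrM:10059-10404, MT-ND4L at chrM:10470-10766, MT-ND4 at chrM:10760-12137 and MT-ND5 at chrM:12337-14148, all on the plus strand of the reference. MT-ND6 lies at chrM:14149-14673 on the minus strand. The first 48 bases of the light-strand gene and of 2 heavy-strand genes show the contrast, with G in capitals.
MT-ND6 (chrM:14626-14673, minus): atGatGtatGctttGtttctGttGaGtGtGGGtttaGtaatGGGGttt
MT-ND5 (chrM:12337-12384, plus): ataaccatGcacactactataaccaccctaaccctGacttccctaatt
MT-ND1 (chrM:3307-3354, plus): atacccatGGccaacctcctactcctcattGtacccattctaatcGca
Over its whole length the MT-ND6 mRNA is 35.6% G and 7.05% C. The 6 heavy-strand mRNAs are 9.50 to 12.1% G and 29.5 to 35.98% C.

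Neighbouring genes overlap or touch, which bears on how reads can be shared between them. MT-ND4L and MT-ND4 are read from 1 mRNA in different frames, and the 7 bases that both genes hold are in capitals here.
MT-ND4L (last 36 bases, chrM:10731-10766, plus): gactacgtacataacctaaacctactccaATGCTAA
MT-ND4 (first 36 bases, chrM:10760-10795, plus): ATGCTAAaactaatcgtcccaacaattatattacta
MT-ND5 and MT-ND6 meet end to end with 0 bases between them and are read from opposite strands. Their ends are shown with the last codon in capitals.
MT-ND5 (last 36 bases, chrM:14113-14148, plus): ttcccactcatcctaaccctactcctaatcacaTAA
MT-ND6 (last 36 bases, chrM:14149-14184, minus): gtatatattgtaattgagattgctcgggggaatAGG
Without strand, reads of RNA that runs on from MT-ND5 through the antisense of MT-ND6 cannot be told from MT-ND6 mRNA, so the counts of both genes are uncertain to that extent. In 4 of the 7 genes, MT-ND1, MT-ND2, MT-ND3 and MT-ND4, the annotated sequence stops within a codon, and in mitochondria the added poly(A) tail is known to complete such stop codons. MT-ND4L, MT-ND5 and MT-ND6 end in a full codon.

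The libraries held 16663562 to 17893056 estimated counts in curcumin-treated cells and 18154380 to 20311769 in untreated cells. The 13 mitochondrial mRNAs took 7.37 to 9.90% of counts in curcumin libraries, and 6.003, 2.95 and 5.97% in untreated replicates 1, 2 and 3, so untreated replicate 2 stood apart from the other untreated libraries. The 100 most abundant genes took 39.9 to 43.3% of curcumin counts and 18.9 to 22.7% of untreated counts, and the factors of edgeR's trimmed mean of M-values (TMM) scaling were 0.716 to 0.804 and 1.30 to 1.34. Of the 7 colon epithelial markers, KRT8, KRT18, KRT19, EPCAM and CDH1 were abundant, with list sums of 7210 to 8454 TMM-normalised CPM (counts scaled to a common library size) in curcumin libraries and 3787 to 4484 CPM in untreated ones, while VIL1 was near 0 and CDX2 averaged 9.63 CPM in curcumin libraries against 25.4 CPM in untreated ones. The 11 markers of other cell types summed to 40.5 to 100 CPM in curcumin libraries and 30.1 to 36.3 CPM in untreated ones. The T cell marker CD3E was at 0 throughout, whereas the leukocyte marker CD68 averaged 21.7 CPM in curcumin libraries against 2.76 CPM in untreated ones. The endothelial marker PECAM1 averaged 14.9 CPM in curcumin libraries against 0.0935 CPM in untreated ones. The fibroblast marker COL1A1 averaged 22.9 CPM in curcumin libraries and 28.6 CPM in untreated ones, and the erythroid marker HBA1 1.68 and 0.536 CPM. The part of these shifts in the results below was not tested.

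After curcumin 5 of the 7 complex I mRNAs rose, 1 fell and 1 was not called. The 5 that rose, MT-ND1, MT-ND2, MT-ND3, MT-ND4L and MT-ND4, are all encoded on the heavy strand and went up by 1.80 to 2.48 on the log2 scale. MT-ND5, also on the heavy strand, had nearly the same mean in both groups, and the light-strand MT-ND6 fell. Calls are from edgeR's quasi-likelihood test at a Benjamini-Hochberg adjusted p under 0.05 over all 13718 genes tested. By the same test 27.2% of all genes rose, 28.9% fell and 56.1% did either, and the median over all genes was −0.04 on the log2 scale, against 1.98 over the 7. All 7 passed the filter on low counts. A bulk library cannot tell less RNA per cell from fewer cells of a kind.

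**Figure D1:**
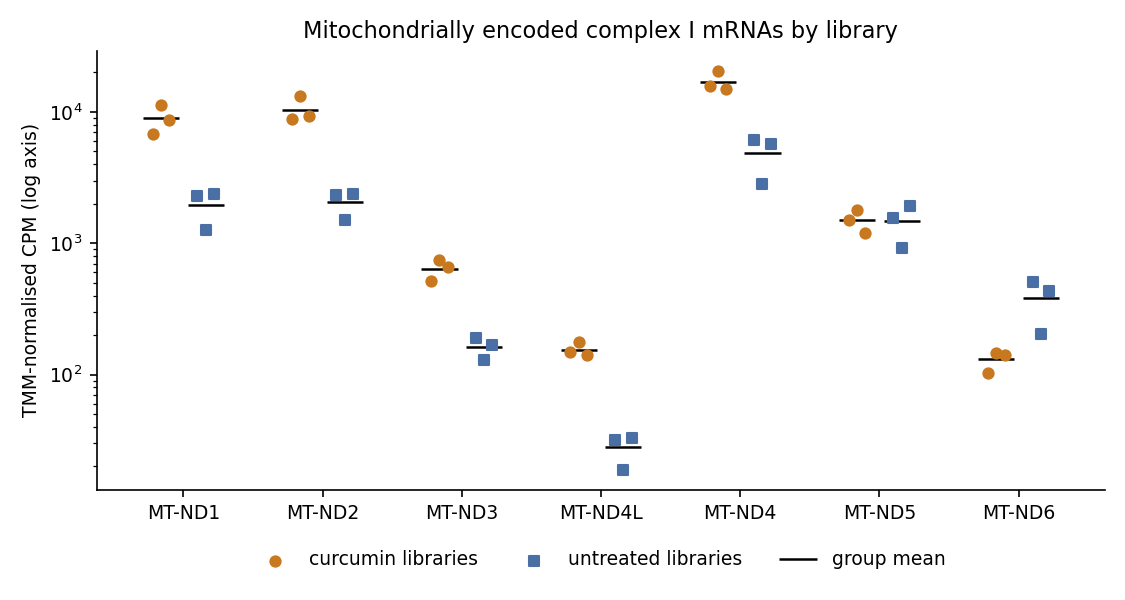
TMM-normalised CPM on a log axis for the 7 mitochondrially encoded complex I mRNAs, with 1 point for each of 3 curcumin libraries (circles) and 3 untreated libraries (squares) and a line at each group mean. The groups are apart for 6 genes, with curcumin lower for MT-ND6, and overlap for MT-ND5.

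MT-ND1 encodes the subunit that forms much of the ubiquinone-binding passage. It stood at 6809, 11265 and 8707 CPM in curcumin replicates 1, 2 and 3, and at 2271, 1256 and 2361 CPM in untreated replicates 1, 2 and 3. The lowest curcumin library was above the highest untreated one, and MT-ND1 rose by 2.19 ± 0.27 (log2 fold change ± SE, n = 3 each, edgeR adjusted p = 0.000123). Of all genes tested, 30.9% were higher and 33.1% lower in curcumin libraries without overlap, 64% in either direction.

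MT-ND2 and MT-ND4 encode antiporter-like subunits, which form proton channels of the membrane arm. MT-ND2 was at 8756, 13178 and 9238 CPM in curcumin libraries against 2332, 1513 and 2376 CPM in untreated libraries. It rose by 2.33 ± 0.24 (n = 3 each, edgeR adjusted p = 3.9e-05) with no overlap. MT-ND4, the most abundant of the 7 and the fourth most abundant of all genes tested by its mean over the 6 libraries, was at 15631, 20592 and 14896 CPM in curcumin libraries against 6089, 2850 and 5735 CPM in untreated libraries. It rose by 1.80 ± 0.28 (edgeR adjusted p = 0.00045), also with no overlap. For all 3 of these genes curcumin replicate 2 was the highest treated library and untreated replicate 2 the lowest untreated one.

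MT-ND3 and MT-ND4L encode small subunits of the membrane arm, and their genes are the shortest of the 7, at 346 and 297 bases. MT-ND3 was at 518, 744 and 664 CPM in curcumin libraries against 191, 128 and 169 CPM in untreated libraries, a rise of 1.98 ± 0.20 (edgeR adjusted p = 3.4e-05, n = 3 each). MT-ND4L was at 148, 176 and 142 CPM in curcumin libraries against 31.7, 18.9 and 32.9 CPM in untreated libraries. Its rise of 2.48 ± 0.22 (edgeR adjusted p = 2.0e-05) was the largest of the 7 with TMM scaling, though not after removal of the length trend, and neither gene overlapped between groups. Only 4 of the tested genes with a known length were no longer than MT-ND4L, so the removal of length trends described further on rests on few genes at this end.

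MT-ND5 encodes the antiporter-like subunit at the far end of the membrane arm and is the longest of the 7 genes, at 1812 bases. It was at 1504, 1792 and 1192 CPM in curcumin libraries against 1564, 912 and 1934 CPM in untreated libraries. The groups overlapped, and the log2 fold change was 0.03 ± 0.26 (n = 3 each, edgeR adjusted p = 0.94). Its raw counts were 20141, 22604 and 15258 in curcumin libraries against 41296, 22206 and 49177 in untreated libraries, so the near-equal normalised levels rest on the TMM factors. With library size alone MT-ND5 fell by 0.77 (edgeR adjusted p = 0.018), under a scaling that called 56.5% of all genes lower.

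MT-ND6 encodes a small subunit beside those of MT-ND3 and MT-ND4L. It was at 103, 147 and 142 CPM in curcumin libraries against 506, 205 and 433 CPM in untreated libraries. Every curcumin library was below every untreated one, and MT-ND6 fell by 1.55 ± 0.30 on the log2 scale (n = 3 each, edgeR adjusted p = 0.0015). In raw counts it had 1373, 1852 and 1818 in curcumin libraries against 13351, 4979 and 11016 in untreated libraries. Of all genes tested, 8.37% had a lower log2 fold change, whereas 3.05 to 6.25% had a higher one than each of the 5 genes that rose.

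How far the 5 rose depended on the scaling, but their direction did not in the 16 settings compared for each gene. The heavy-strand sum as library size, used below for MT-ND6, was not among the 16. Scaling by library size alone took the median of all genes to −0.84, and there 9.62% of all genes rose and 56.5% fell. On that scale MT-ND1, MT-ND2, MT-ND3, MT-ND4L and MT-ND4 rose by 1.38, 1.52, 1.17, 1.68 and 1.0, and MT-ND6 fell by 2.36. With each library's trend with transcript length removed, the same 5 rose by 1.19, 1.39, 0.47, 0.92 and 1.10 (edgeR adjusted p from 0.00071 to 0.044) and MT-ND6 fell by 2.88, where 25.2% of all genes rose and 22.6% fell.

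MT-ND6 was set against the 6 heavy-strand complex I mRNAs within each library, a ratio that no scaling between libraries can change. Its counts were 0.307, 0.308 and 0.408% of the summed heavy-strand counts in curcumin replicates 1, 2 and 3, against 4.05, 3.06 and 3.44% in untreated replicates 1, 2 and 3. The mean was 0.341 ± 0.0578% in curcumin libraries and 3.52 ± 0.500% in untreated libraries (SD, n = 3 each). On the log2 scale the difference was −3.37, a ratio 10.3-fold lower in curcumin libraries, with no overlap (two-sided exact permutation p = 0.1, the lowest value this design can give). With the heavy-strand sum as library size edgeR gave MT-ND6 a log2 fold change of −3.37 ± 0.47 (adjusted p = 1.3e-11), on a scale where 79.8% of all genes were called lower and 1.9% higher. Without untreated replicate 2 the difference was −3.47. Against each heavy-strand mRNA alone the log2 difference ran from −3.98 with MT-ND4L to −1.54 with MT-ND5.

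**Figure D2:**
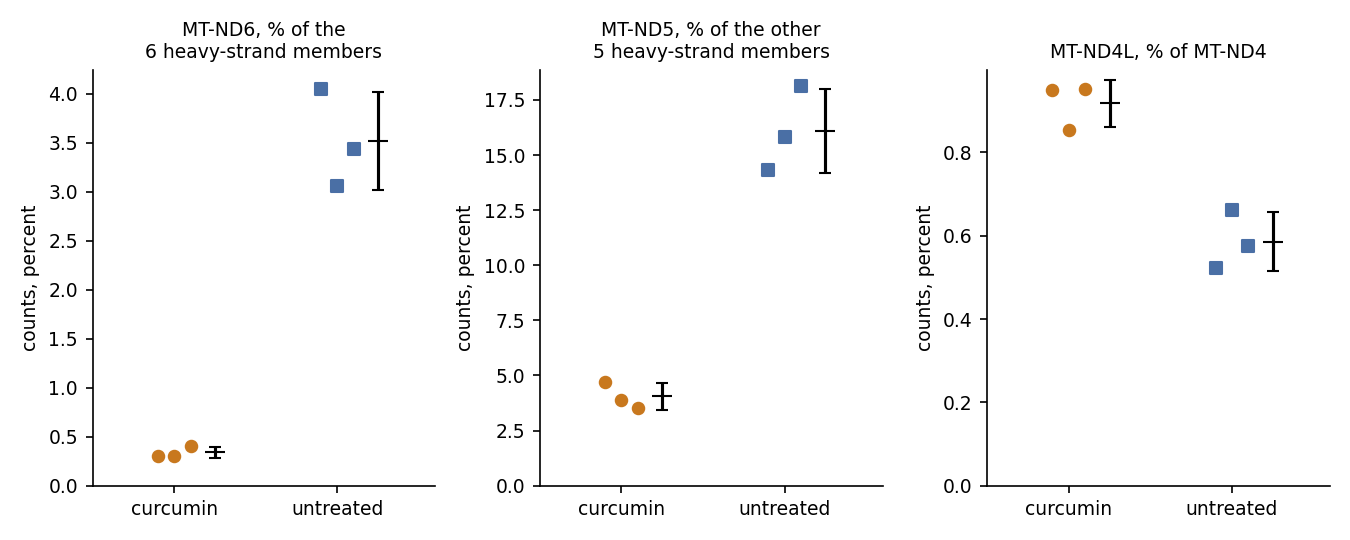
Counts of MT-ND6 as a percent of the 6 heavy-strand genes, of MT-ND5 as a percent of the other 5, and of MT-ND4L as a percent of MT-ND4, each axis from 0, with 1 point a library (3 curcumin, 3 untreated) and the mean ± SD beside them. The first 2 percentages are lower in every curcumin library than in any untreated one, and the last is higher in every curcumin library.

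The MT-ND5 counts were likewise low against the other 5 heavy-strand genes, a comparison chosen after its values were seen. They came to 4.72, 3.90 and 3.54% of the other 5 in curcumin replicates 1, 2 and 3, against 14.3, 15.8 and 18.1% in untreated replicates 1, 2 and 3. The mean log2 ratio was −4.63 ± 0.21 in curcumin libraries and −2.64 ± 0.17 in untreated libraries (SD, n = 3 each), a difference of −1.99 without overlap (two-sided exact permutation p = 0.1, the smallest possible here). MT-ND6 was lower against MT-ND5 too, at a log2 ratio of −3.52 ± 0.41 in curcumin libraries and −1.98 ± 0.31 in untreated libraries (n = 3 each, exact permutation p = 0.1).

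MT-ND4L and MT-ND4, which share 1 mRNA, stood in different proportions in the groups. MT-ND4L counts were 0.949, 0.852 and 0.951% of MT-ND4 counts in curcumin libraries against 0.521, 0.662 and 0.575% in untreated libraries. The percentages did not overlap, and the log2 ratio differed by 0.65 (n = 3 each, two-sided exact permutation p = 0.1). MT-ND4L is 297 bases long and MT-ND4 is 1378, and how the counting tool treated short genes is not stated.

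**Figure D3:**
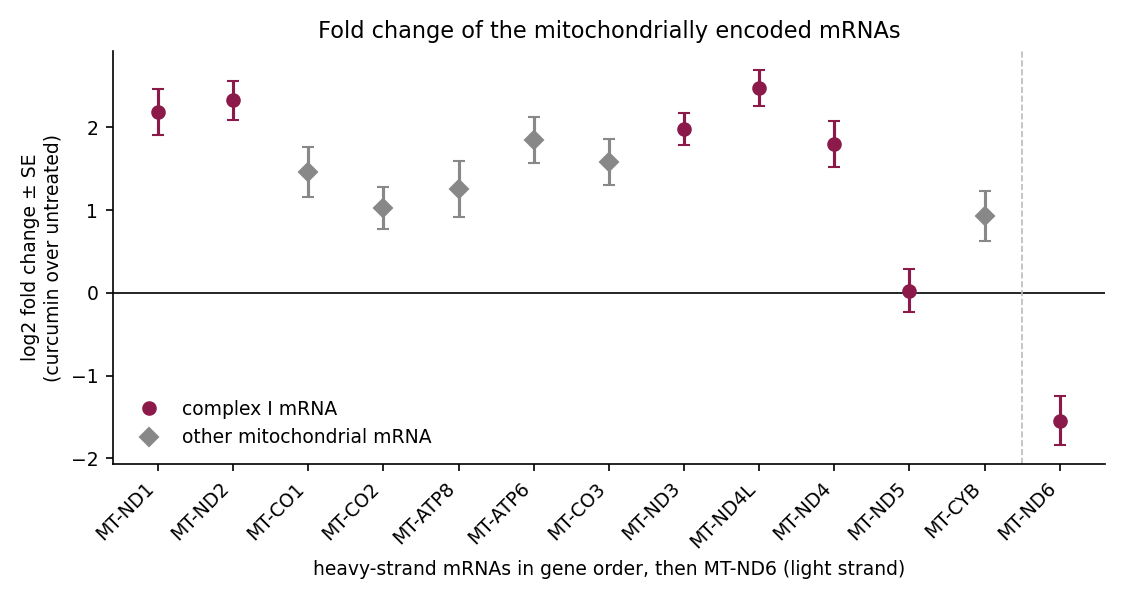
Log2 fold change ± SE (edgeR, curcumin over untreated, 3 libraries each) of the 12 heavy-strand mRNAs in gene order and, right of the dashed line, of the light-strand MT-ND6, with complex I mRNAs as circles. MT-ND5 lies near 0 at 0.03 and MT-ND6 at −1.55, while the other 5 complex I mRNAs lie between 1.80 and 2.48.

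Along the heavy strand the log2 fold changes did not fall steadily with position. In gene order MT-ND1 and MT-ND2 stood at 2.19 and 2.33, then the 5 mRNAs of complexes IV and V from MT-CO1 to MT-CO3 at 1.02 to 1.85, then MT-ND3, MT-ND4L and MT-ND4 at 1.98, 2.48 and 1.80. MT-ND5 stood at 0.03 and MT-CYB, the last, at 0.93 ± 0.31 (edgeR adjusted p = 0.025). Across the 12 heavy-strand mRNAs Spearman's rho of log2 fold change was −0.37 with start position and −0.39 with length. For the 6 heavy-strand complex I mRNAs alone rho was −0.60 with start position and −0.77 with length. Both describe genes that share libraries and a precursor. All 6 of the other mitochondrial mRNAs rose in the same test, with a median of 1.36, among them MT-ATP6 at 1.85 ± 0.28 and MT-CO3 at 1.58 ± 0.27 (edgeR adjusted p = 0.00033 and 0.00082). Of all genes tested 27.2% rose there. With library size alone 3 of these 6 rose, where 9.62% of all genes did, and 1 after removal of the length trend, where 25.2% did.

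**Figure D4:**
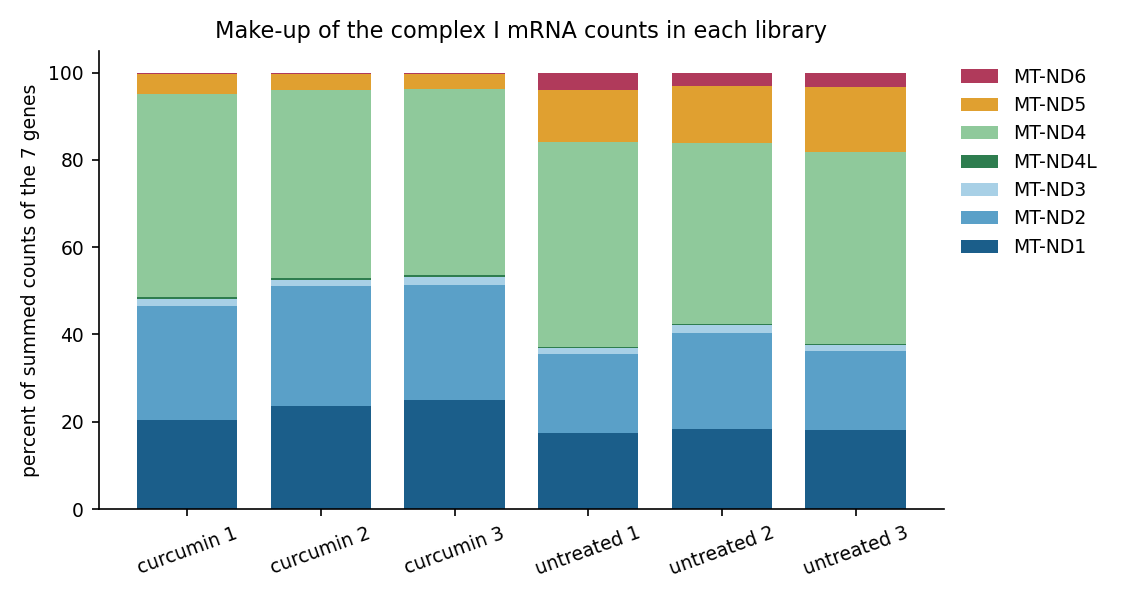
Stacked bars of the counts of the 7 complex I genes as a percent of their sum in each of the 3 curcumin and 3 untreated libraries. MT-ND5 and MT-ND6 take 3.41 to 4.49% and 0.306 to 0.406% in curcumin libraries, against 12.05 to 14.8% and 2.97 to 3.90% in untreated libraries.

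The make-up of the complex I counts differed between the groups. MT-ND1 made up 22.9 ± 2.33% of the 7 genes' counts in curcumin libraries and 17.9 ± 0.401% in untreated libraries (SD, n = 3 each), and MT-ND2 26.7 ± 0.721% and 19.4 ± 2.25%. MT-ND4 made up 44.1 ± 2.27% in curcumin libraries and 44.1 ± 2.75% in untreated libraries, with overlap. MT-ND3 made up 1.67 ± 0.201% and 1.54 ± 0.291%, also with overlap. Together the 7 genes took 2.93 ± 0.587% of all counts in curcumin libraries and 1.45 ± 0.455% in untreated libraries (exact permutation p = 0.1). Of the 13 mitochondrial mRNAs' counts they took 34.8 ± 1.35% in curcumin libraries and 29.5 ± 1.62% in untreated libraries, again without overlap (exact permutation p = 0.1). When the 13 mitochondrial mRNAs served as library size, MT-ND2 alone was called higher (0.70, edgeR adjusted p = 0.040), where 2.34% of all genes were. MT-ND5 and MT-ND6 were called lower on that scale (−1.55 and −3.08, edgeR adjusted p = 0.00016 and 8.3e-09), as were 70.6% of all genes.

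Counts of different genes were compared per kilobase of gene length, as TMM-normalised CPM per kb. In curcumin libraries the order from high to low was MT-ND4 at 12365 ± 2248, MT-ND2 at 9972 ± 2328, MT-ND1 at 9338 ± 2339, MT-ND3 at 1855 ± 332, MT-ND5 at 826 ± 166, MT-ND4L at 523 ± 60.4 and MT-ND6 at 248 ± 46.3 CPM per kb (SD, n = 3). The ranges of MT-ND4, MT-ND2 and MT-ND1 overlapped from neighbour to neighbour, and those below did not. In untreated libraries the order was MT-ND4 at 3550 ± 1290, MT-ND1 at 2053 ± 642, MT-ND2 at 1990 ± 466, MT-ND5 at 811 ± 285, MT-ND6 at 726 ± 299, MT-ND3 at 469.8 ± 92.2 and MT-ND4L at 93.8 ± 26.3 CPM per kb. There the ranges of neighbours overlapped except between MT-ND2 and MT-ND5 and between MT-ND3 and MT-ND4L. MT-ND6 thus stood above MT-ND3 and MT-ND4L in all 3 untreated libraries and was the lowest of the 7 in all 3 curcumin libraries.

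Within a group the 7 genes tended to go up and down together from library to library. In untreated replicate 2 the heavy-strand genes lay 0.32 to 0.70 below their group means on the log2 CPM scale and MT-ND6 lay 0.80 below. In curcumin replicate 2 the heavy-strand genes lay 0.18 to 0.37 above and MT-ND6 0.19 above. Curcumin replicate 3 was less even, with the heavy-strand genes at −0.31 to 0.07 from their group means and MT-ND6 at 0.14. Pearson's r of these deviations over the 6 libraries was 0.62 to 0.99 for the 15 heavy-strand pairs and 0.74 to 0.93 for pairs with MT-ND6, a description only, since the genes share libraries and their depth. Without untreated replicate 2 the log2 fold changes of MT-ND1, MT-ND2, MT-ND3, MT-ND4L and MT-ND4 were 1.93, 2.13, 1.82, 2.25 and 1.51, that of MT-ND5 −0.24 (edgeR adjusted p = 0.30) and that of MT-ND6 −1.86 (edgeR adjusted p = 0.00013).

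Nuclear copies of these genes took few counts. The table held 215 rows of nuclear MTND pseudogenes, of which 192 were at 0 in all 6 libraries. They summed to 0.0881 to 0.0974% of the 7 genes' counts in curcumin libraries and 0.0502 to 0.0609% in untreated libraries. Most of it in every library lay in MTND2P28, a copy on chromosome 1 (629640 to 630683) that matches MT-ND2 at 98.4% of 1042 aligned bases. MTND2P28 had 383, 519 and 408 counts in curcumin libraries and 161, 88 and 163 in untreated libraries, and rose by 2.65 ± 0.26 beside the 2.33 of MT-ND2 (edgeR adjusted p = 3.2e-05). Reads of the pair may have been shared upstream. MT-ND6 copies held 1 count in all and MT-ND5 copies at most 9 in a library.

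Nuclear genes for complex I were mostly called higher with TMM scaling, and fewer of them were with library size alone or with the length trend removed. Of the 7 nuclear core subunits, which carry the redox centres, 4 rose and 0 fell (median 0.51 on the log2 scale), where 27.2% of all genes rose and 28.9% fell. NDUFV1, which binds NADH, rose by 1.37 ± 0.15 to 191 ± 20.3 CPM in curcumin libraries, against 73.9 ± 9.66 CPM in untreated libraries. NDUFS8, an iron-sulphur subunit, rose by 1.16 ± 0.16, but was at 0.04 once the length trend was removed (edgeR adjusted p = 0.83). Of 29 tested accessory subunits 25 rose and 1 fell (median 1.21). NDUFB11 and NDUFA11 rose by 1.58 ± 0.14 and 1.51 ± 0.14, and NDUFV3 fell by 0.86 ± 0.17. Of 18 assembly factors 8 rose and 3 fell (median 0.47), among them ECSIT, which rose by 1.63 ± 0.17, NDUFAF3, which rose by 1.41 ± 0.17, and NDUFAF1 and TMEM186, which fell by 1.03 ± 0.27 and 1.48 ± 0.37. With library size alone 1 core subunit rose and 3 fell, 13 accessory subunits rose and 3 fell, and 2 assembly factors rose and 6 fell, on a scale where 9.62% of all genes rose and 56.5% fell. With the length trend removed 2 core subunits rose and 1 fell, 10 accessory subunits rose and 3 fell, and 5 assembly factors rose and 3 fell, against 25.2% and 22.6% of all genes.

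No gene of the mitochondrial transcription list was called higher. Of 9 tested, 0 rose and 6 fell (median −0.64), where 28.9% of all genes fell. Under scaling by library size alone 8 fell, where 56.5% of all genes did, and after removal of the length trend 4 fell, where 22.6% did. POLRMT, the mitochondrial RNA polymerase, was at 102 ± 26.9 CPM in curcumin libraries and 152 ± 14.6 CPM in untreated libraries (−0.57 ± 0.20, edgeR adjusted p = 0.029). TFAM, which packages mitochondrial DNA and helps start transcription, fell to 25.1 ± 2.36 CPM in curcumin libraries, against 39.0 ± 4.06 CPM in untreated libraries (edgeR adjusted p = 0.0071). Neither POLRMT nor TFAM was called after removal of the length trend (edgeR adjusted p = 0.15 and 0.37). TFB2M, the initiation factor that opens the promoter, fell by 1.14 ± 0.21, and MTERF1, known for binding within the leucine tRNA gene next to MT-ND1, fell by 2.01 ± 0.34 from few reads (1.57 ± 0.261 CPM in curcumin libraries, 6.34 ± 1.16 CPM in untreated libraries).

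Genes that cut, tail, stabilise or degrade mitochondrial RNA were called in both directions. Of 18 tested, 6 rose and 8 fell (median −0.20), where 27.2% of all genes rose and 28.9% fell. With library size alone 1 rose and 13 fell (median −1.02), where 9.62% of all genes rose and 56.5% fell. After removal of the length trend 4 rose and 7 fell (median −0.26), where 25.2% of all genes rose and 22.6% fell. PRORP, the nuclease subunit of mitochondrial RNase P (KIAA0391 in the table), fell by 2.42 ± 0.24, to 4.79 ± 0.831 CPM in curcumin libraries against 25.8 ± 5.80 CPM in untreated libraries. TRMT10C, another subunit of that enzyme, named after its values were seen, fell by 2.34 (edgeR adjusted p = 0.000125). HSD17B10, a further subunit also named afterwards, went the other way and rose by 0.72 ± 0.17 (edgeR adjusted p = 0.0042). Neither library size alone nor removal of the length trend gave a call for HSD17B10 (−0.08 and −0.26). MTPAP, the mitochondrial poly(A) polymerase, fell by 1.82 ± 0.18 (edgeR adjusted p = 3.4e-05). SLIRP, which with LRPPRC keeps heavy-strand mRNAs stable, rose by 1.99 ± 0.27 to 18.4 ± 2.79 CPM in curcumin libraries, against 4.62 ± 1.42 CPM in untreated libraries. LRPPRC itself was at 282 ± 14.8 CPM in curcumin libraries and 229.9 ± 8.76 CPM in untreated libraries (0.29 ± 0.13, edgeR adjusted p = 0.071). It was called lower with library size alone (−0.51) and higher with the length trend removed (0.86).

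Among genes linked to MT-ND6 or to RNA decay, FASTK, whose mitochondrial form is needed for MT-ND6 mRNA, rose by 0.81 ± 0.16 (edgeR adjusted p = 0.0021). GRSF1, an RNA granule protein that binds light-strand RNA, rose by 0.42 ± 0.13 (edgeR adjusted p = 0.015). SUPV3L1, the helicase of the mitochondrial RNA-degrading complex, rose by 1.32 ± 0.25, to 71.2 ± 27.9 CPM in curcumin libraries against 28.5 ± 2.15 CPM in untreated libraries. Its partner, the exoribonuclease PNPT1, was at 18.9 ± 4.39 CPM in curcumin libraries and 20.4 ± 5.35 CPM in untreated libraries (edgeR adjusted p = 0.72). With library size alone FASTK was at 0.01 and SUPV3L1 at 0.49, neither called. GRSF1 and PNPT1 were called lower there (−0.38 and −0.91, edgeR adjusted p = 0.034 and 0.0097), as were 56.5% of all genes. After removal of the length trend FASTK and PNPT1 were not called (0.33 and 0.18, edgeR adjusted p = 0.12 and 0.59). GRSF1 and SUPV3L1 were called higher there (1.03 and 1.14, edgeR adjusted p = 0.00029 and 0.0036), as were 25.2% of all genes.

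**Figure D5:**
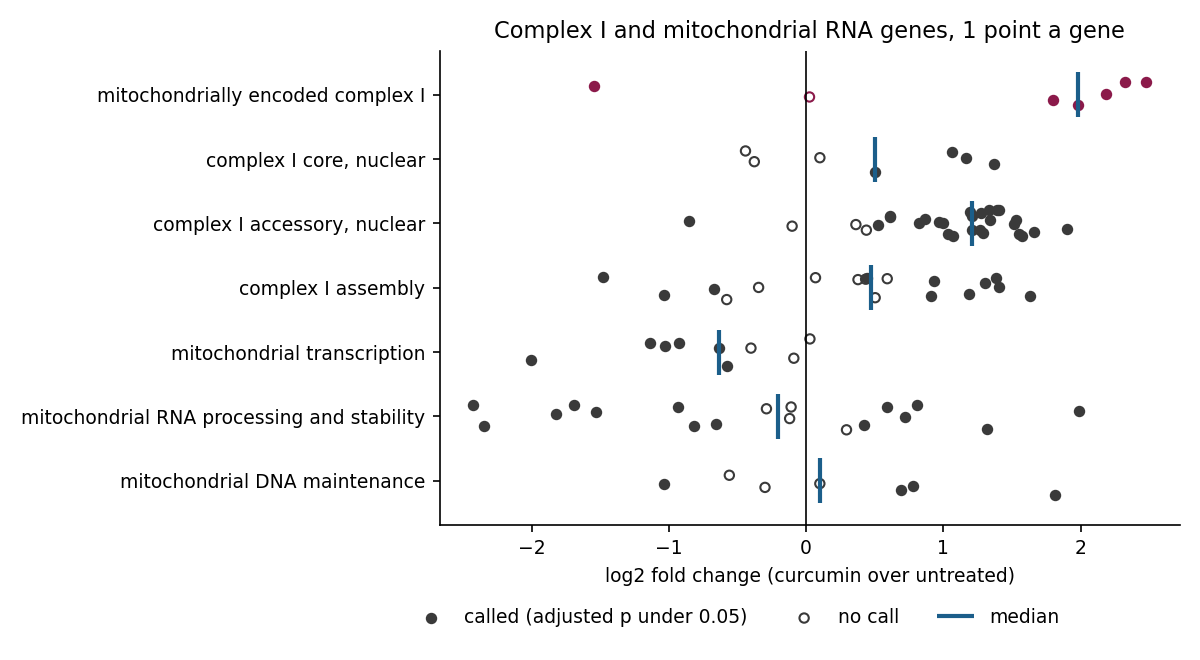
Log2 fold change (edgeR, curcumin over untreated, 3 libraries each) of the 7 mitochondrially encoded complex I genes and of the tested genes of 6 nuclear lists, 1 point a gene, filled where called at an adjusted p under 0.05, with a bar at each median. The medians are 1.98 for the mitochondrially encoded genes, 1.21 for accessory subunits and −0.64 for mitochondrial transcription.

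Genes that maintain mitochondrial DNA were called in both directions, and the balance turned with the scaling. Of 7 tested, 3 rose and 1 fell (median 0.10), where 27.2% of all genes rose and 28.9% fell. On the scale of library size alone the counts were 1 higher and 4 lower (median −0.71), where 9.62% of all genes rose and 56.5% fell. After removal of the length trend 1 rose and 2 fell (median −0.28), where 25.2% of all genes rose and 22.6% fell. TOP1MT, the mitochondrial topoisomerase, rose by 1.81 ± 0.14, and POLG2, the accessory subunit of the mitochondrial DNA polymerase, rose by 0.78 ± 0.22. POLG, its catalytic subunit, fell by 1.04 ± 0.16 to 31.9 ± 2.05 CPM in curcumin libraries, against 65.4 ± 8.39 CPM in untreated libraries. POLG2 was called neither by library size alone nor after removal of the length trend (edgeR adjusted p = 0.90 and 0.51).

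Likeness to the 7 genes was measured by Pearson's r of log2 CPM over the 6 libraries, among 10615 nuclear protein-coding genes with a mean of at least 5 CPM. The 3 genes most like MT-ND6 were KPNA5, AASDH and NECAP2 (r = 0.994, 0.992 and 0.987), with log2 fold changes of −0.62, −0.53 and −0.24, of which only that of KPNA5 was called (edgeR adjusted p = 0.038, 0.066 and 0.18). The 3 most like the summed heavy-strand genes were CTNNBIP1, CST6 and ORMDL1 (r = 0.998, 0.996 and 0.996), which rose by 0.78, 1.44 and 0.84 (edgeR adjusted p = 0.0018, 0.00018 and 0.0025). These correlations describe 6 libraries in 2 groups.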

How the data were processed

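The deposited table holds the authors' estimated counts (expected counts), of which 18.9 to 30.1% in a library are not whole and which are not scaled to a common total. The labels' protocols name a SMARTer mRNA-Seq library kit. No source used here names an aligner, counting tool or annotation, so how reads shared between genes were split is not known. Per the submitters' processing notes the builds were of the mouse, whereas all 35106 rows carry human Ensembl identifiers, and 35003 of them matched GENCODE release 29, which gave lengths and positions.

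Values were rounded to whole counts, kept where edgeR's filterByExpr passed them (at a minimum count of 10 and a total of 15) and given TMM factors. Curcumin was compared with untreated in edgeR 4.0.16 (R 4.3.3) by its quasi-likelihood test, on all 6 libraries. Ratios within a library were tested by a two-sided exact permutation test (scipy 1.17.1). The test script was checked on simulated counts. Alternatives included limma 3.58.1 (voom), DESeq2 1.42.0, a replicate block, each library left out in turn, and removal of each library's loess trend (span 0.3) with transcript length. All replicate pairs differed by more than sampling noise (chi-square at least 11.4 times its degrees of freedom).

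The 7 genes and the lists were chosen with earlier results of these data known. From each list the text names the 2 called genes with the smallest adjusted p in each direction, 9 transcription and RNA genes whatever their values, and the 3 nuclear genes most like MT-ND6 and most like the heavy-strand sum. TRMT10C and HSD17B10 were added after their values were seen. Other mitochondrial mRNAs are given only beside the 7.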

Additional observations from a re-analysis of the deposited data

How the results depend on the processing

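MT-ND1, MT-ND2, MT-ND3, MT-ND4L and MT-ND4 stayed higher and MT-ND6 lower under all 16 settings, which left out the heavy-strand sum as library size. In these settings 5 higher and 1 lower call were made each time except under 2 scalings. With the mitochondrial mRNA total as library size 1 was called higher and 2 lower, and with library size alone 5 were higher and 2 lower. MT-ND5 turned negative with library size alone (−0.77), without the 100 most abundant genes (−0.34), on the mitochondrial total (−1.55), unfiltered (−0.053) and once the length trend was removed (−0.46). Leaving out 1 library gave MT-ND5 values from −0.24 to 0.26, negative without curcumin replicate 2 (−0.14) or untreated replicate 2 (−0.24). The cause was not tested.

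The log2 ratio of MT-ND6 to the heavy-strand genes, −3.37, was −3.67, −3.79, −3.98 and −1.54 with MT-ND1, MT-ND2, MT-ND4L or MT-ND5 alone below it, −3.10 with all 12 heavy-strand mRNAs, and −3.51 to −3.26 with a library left out. The difference in the 7 genes' share of counts, 1.48 percentage points, was 3.20 without the 100 most abundant genes in the total and 2.78 over TMM-normalised sizes, both by construction a smaller total in curcumin libraries.

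Of 88 tested nuclear list genes, 46 were higher and 19 lower, where 27.2% of all genes rose and 28.9% fell. This became 18 and 37 with library size alone, where 9.62% of all genes rose and 56.5% fell. With the length trend removed 22 were higher and 20 lower, near the shares of all genes there, 25.2% and 22.6%. With a library left out, 37 to 48 were higher and 16 to 21 lower.

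Deviations from the group means correlated at 0.04, 0.02 and 0.11 between same-numbered libraries and at −0.08 to 0.04 between different-numbered ones. Values this small from so few libraries cannot tell whether the replicate numbers pair them. With the replicate block, 5 and 1 of the 7 genes were called, 46 and 21 list genes, and the ratio was −3.37 (exact sign-flip p = 0.25, the smallest that 3 pairs allow).

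Depth limits mainly the sparse list genes, such as MTERF1 with 543 and TMEM186 with 576 counts over the 6 libraries. The lowest count of MT-ND6 in a library was 1373 and that of MT-ND4L 459.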
